A study of Mus musculus with 2 samples.

Results

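Keratinocytes (KCs) are the epithelial cells of the epidermis and of the hair follicles and sebaceous glands that open onto it. They were chosen by the transcripts that each barcode of 2 single-cell RNA-seq libraries of mouse ear skin carried, so the genes of that choice are no finding. A barcode was taken as a KC when it held at least 10 unique molecular identifiers (UMIs, each standing for 1 captured transcript) of the keratins *Krt14*, *Krt5*, *Krt10* and *Krt1* together, at least 2 of the adhesion and epithelial genes *Perp*, *Dsp* and *Sfn* together, and none of the leukocyte gene *Ptprc* or the fibroblast gene *Pdgfra*. This gave 156 KCs of 12213 kept barcodes in the control library and 116 of 11665 in the library of allergic contact dermatitis (ACD), which is 272 of 23878 in all. KCs with more *Krt14* and *Krt5* than *Krt1* and *Krt10* UMIs were called basal (153 in control, 111 in ACD) and the others suprabasal (3 in control, 5 in ACD).

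Each condition was 1 library of ear skin from male ICR mice aged 7 to 8 weeks. How many mice went into a library was not given in the sources used here. ACD mice had been sensitized with 25 µL of 1.0% 1-fluoro-2,4-dinitrobenzene (DNFB), a skin-sensitizing hapten, on the back and challenged 6 days later with 20 µL of 0.2% DNFB on each ear, and the ears were taken 60 hr after the challenge. The control ears were healthy skin. With 1 library per condition the effect of ACD could not be tested, so differences are given as ratios between these libraries, and every interval in parentheses is an exact 95% interval that covers counting error only.

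In contact dermatitis the hapten reaches living KCs first, and T cells arriving at the second exposure release interferon-γ (IFNγ). IFNγ and the type I interferons act on KCs through receptors of their own and switch on overlapping sets of genes. Among the classical target genes are those for antigen loading on MHC class I, guanylate-binding proteins and, for IFNγ, MHC class II and the T cell attracting chemokines *Cxcl9* and *Cxcl10*. Basal KCs divide and hold the epidermis to its basement membrane, suprabasal KCs build the barrier, and sebaceous gland cells make the lipids of sebum.

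The promoters of 5 genes that were higher in ACD KCs are shown because they hold the letters that interferon-activated factors are known to bind, together with that of *Irf1*, a classical IFNγ target that did not pass 2-fold here. An interferon-stimulated response element (ISRE) was searched as GAAANNGAAA (TTTCNNTTTC on the other strand) and a gamma-activated site (GAS) as TTCNNNGAA, which reads the same on both strands. Sequences are from RefSeq on GRCm38.p6 and run 5′ to 3′ up to the transcription start, with every match in capitals and overlapping matches joined into 1 run. Positions count back from the start. *B2m* is at chr2:122147537-122147685 on the plus strand, with an ISRE from -139. *Isg15* is at chr4:156200819-156200968 on the minus strand, with overlapping ISRE from -78, -72 and -66. *Bst2* is at chr8:71537473-71537622 on the minus strand, with a GAS from -136 that overlaps the first of 2 ISRE from -130 and -124. *Gbp7* is at chr3:142530186-142530335 on the plus strand, with GAS from -106 and -87 and a reverse ISRE from -53. *Igtp* is at chr11:58199406-58199555 on the plus strand, with a GAS from -45 and an ISRE from -34, and *Irf1* is at chr11:53769864-53770013 on the plus strand, with a GAS from -90.
B2m: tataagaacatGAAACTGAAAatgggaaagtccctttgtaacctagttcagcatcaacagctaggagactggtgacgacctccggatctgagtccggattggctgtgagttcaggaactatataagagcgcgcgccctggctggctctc
Isg15: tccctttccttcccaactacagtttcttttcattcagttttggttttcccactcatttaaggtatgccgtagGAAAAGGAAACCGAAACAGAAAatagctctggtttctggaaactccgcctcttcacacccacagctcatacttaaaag
Bst2: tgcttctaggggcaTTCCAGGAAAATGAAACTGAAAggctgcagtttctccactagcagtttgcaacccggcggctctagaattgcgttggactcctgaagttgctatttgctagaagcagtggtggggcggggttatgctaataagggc
Gbp7: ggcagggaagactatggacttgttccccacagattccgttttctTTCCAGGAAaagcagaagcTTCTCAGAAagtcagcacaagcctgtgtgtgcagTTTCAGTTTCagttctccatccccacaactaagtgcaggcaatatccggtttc
Igtp: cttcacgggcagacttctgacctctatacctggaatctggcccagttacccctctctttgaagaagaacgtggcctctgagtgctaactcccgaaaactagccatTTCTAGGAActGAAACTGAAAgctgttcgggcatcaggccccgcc
Irf1: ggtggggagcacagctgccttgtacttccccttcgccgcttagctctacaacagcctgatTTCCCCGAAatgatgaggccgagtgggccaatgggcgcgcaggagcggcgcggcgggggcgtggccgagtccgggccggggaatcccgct

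Within the 250 bases before the start, 2.98% of all 32851 promoters in the table held the ISRE letters and 7.02% the GAS letters. Of 38 interferon, MHC class I and MHC class II list genes that were at least 2-fold higher in ACD KCs also without their top cell, 29 had a promoter in the table. An ISRE was found for 8 of these 29 genes (27.6%) and a GAS for 5 (17.2%). Of the 15 genes of the same lists that were measured but were not higher, 4 held an ISRE (26.7%) and 5 a GAS (33.3%). Over the 5187 measured genes with a promoter in the table the shares were 2.99% for the ISRE and 6.65% for the GAS.

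The label fitted the transcripts of these barcodes. Against all other kept barcodes the leading genes over both libraries were *Krt15*, *Krt14*, the epithelial lectin *Lgals7*, *Krt5*, *Ly6d* and *Sfn*. *Krt14*, *Krt5* and *Sfn* stood in the selection itself and are given as description. KCs had 17 to 865 UMIs of the 4 selecting keratins in control (median 115) and 15 to 1107 in ACD (median 124), so no member lay between 10 and 12, and 1 barcode in each library fell short with 7 to 9. The *Perp*, *Dsp* and *Sfn* limit was closer, with 1 control and 7 ACD members at 2 or 3 UMIs and 1 control and 3 ACD barcodes left out at 0 or 1. A UMI of *Ptprc* or *Pdgfra* left out 18 barcodes in control and 20 in ACD. No doublet caller was run. Members held a median of 14506 UMIs and 3322 genes in control and 13742.5 UMIs and 3142.5 genes in ACD, above the medians of 6850 and 7447 UMIs over all kept barcodes. The libraries shared 50 barcode sequences and none of them was a KC in both.

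**Figure D1:**
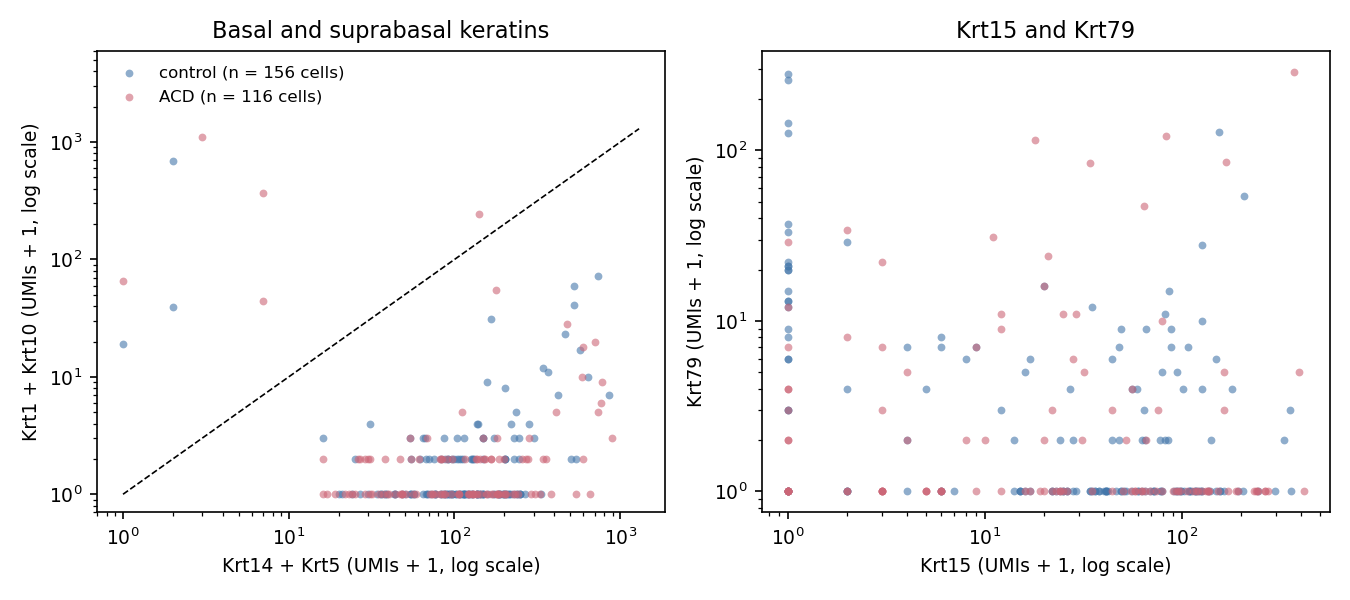
Left, UMIs of *Krt14* and *Krt5* (x axis) against UMIs of *Krt1* and *Krt10* (y axis) for each KC of both libraries, right, *Krt15* against *Krt79* in the same cells, all with 1 added and on log scales. Points above the dashed line of equality are the suprabasal KCs, 3 of 156 in control and 5 of 116 in ACD, and *Krt79* reaches at least 5 UMIs in 42 control and 23 ACD cells, some of them with no *Krt15*.

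KCs made up 1.28% of kept barcodes in control (1.09 to 1.49) and 0.994% in ACD (0.822 to 1.19), and the suprabasal share of KCs was 1.92% in control (0.398 to 5.52) and 4.31% in ACD (1.41 to 9.77). Both pairs of intervals overlapped. The level of a gene below is its UMIs in all KCs of a library per 1000000 UMIs of those cells (2172035 UMIs in control, 1568948 in ACD). The damped log2 ratio of ACD over control has 10 added to each level, which keeps genes with few UMIs near 0, and the plain log2 ratio has nothing added. A gene was measured when it had at least 50 UMIs over the KCs and was called when the damped ratio was at least 2-fold. Of 6688 measured genes, 105 were higher (1.57%) and 30 lower (0.449%) in ACD KCs, and the median damped log2 ratio was -0.06 with 40.8% of genes above 0. Single cells could carry a call. When each gene's richest cell was left out of each library, 85 genes were still higher (1.27%) and 21 still lower (0.314%), and 30 of the higher and 7 of the lower genes had over 50% of their UMIs in 1 cell.

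Genes that load peptides onto MHC class I were higher in ACD KCs. Of 19 measured genes of this group, 15 were higher in ACD KCs and none lower, all 15 also without the richest cell, with a median damped log2 ratio of 1.77 against the background of 1.57% of genes higher. *B2m*, the light chain of every class I molecule and the carrier of the first promoter above, was at 391 (365 to 418) in control and 1986 (1917 to 2057) in ACD, a plain log2 ratio of 2.35 (2.24 to 2.46). It had a UMI in 146 control and 113 ACD KCs, in nearly all cells of both libraries. The heavy chains *H2-K1* and *H2-D1* went from 371 to 1433 and from 897 to 3167.

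Genes of the immunoproteasome, the form of the proteasome that cuts peptides for class I, were at low levels in control KCs. *Psmb8* was at 51.6 (42.5 to 62.0) in control and 541 (505 to 579) in ACD, and *Psmb9* at 23.5 (17.5 to 30.9) and 258 (234 to 285). *Psmb8* had a UMI in 65 control and 102 ACD KCs. The third inducible subunit, *Psmb10*, was at 18.9 in control and 106 in ACD. Of the peptide transporter, *Tap1* was at 30.4 and 128 and *Tap2* at 23.9 and 78.4, and the loading factor *Tapbp* was at 35.9 and 123. The non-classical class I genes *H2-Q7* (22 and 216 UMIs), *H2-T22* (58 and 316 UMIs) and *H2-T23* (132 and 415 UMIs) were higher as well, with the caution that the *H2-Q* and *H2-T* genes are close copies of each other and the counting can split or merge their reads. *Psme1*, a proteasome activator, was called, and its partner *Psme2* lay just under 2-fold at a damped log2 ratio of 0.98. The general chaperones of the endoplasmic reticulum *Calr* (0.51), *Pdia3* (0.07) and *Canx* (-0.15) were not past 2-fold.

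In single cells the difference was broad. The summed class I group made up a median of 26.3 per 10000 UMIs of a control KC (range 2.34 to 103) and 98.9 of an ACD KC (range 11.2 to 208). All but 4 of the 116 ACD cells, 112, lay above the control median, 50 lay above the highest control cell, and 1 control cell lay above the ACD median.

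**Figure D2:**
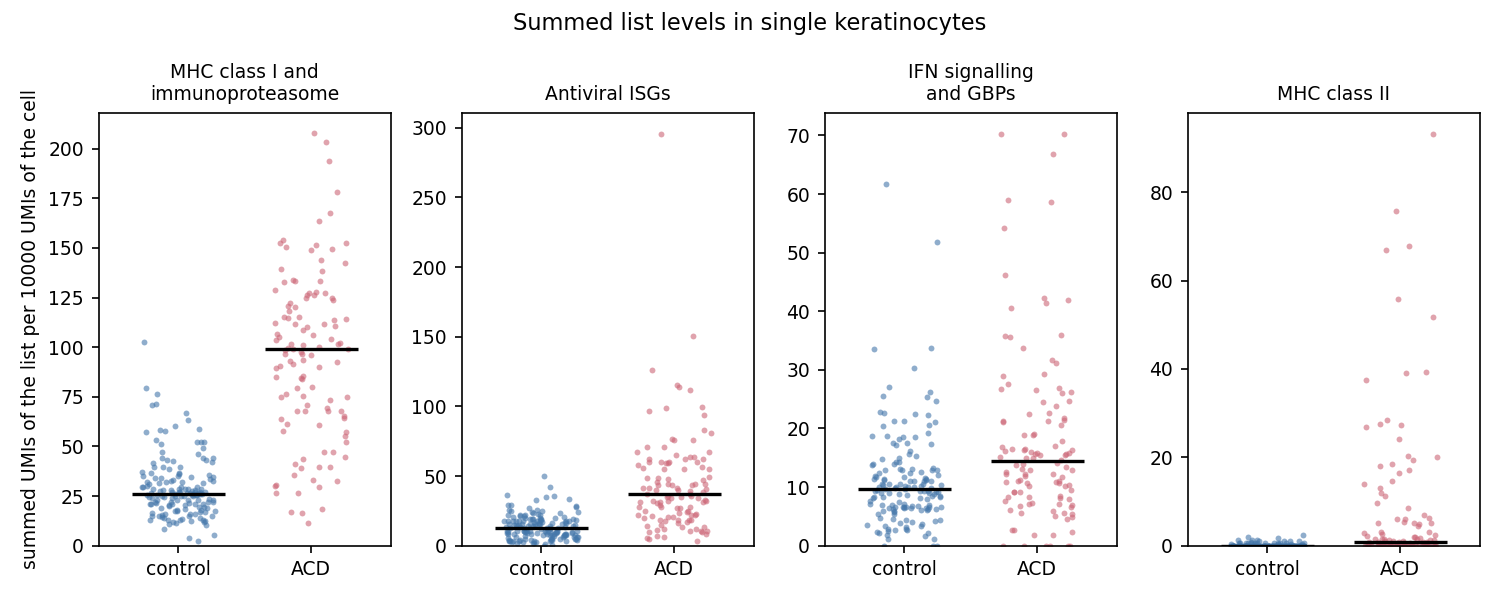
Summed UMIs of 4 gene groups per 10000 UMIs of each KC (y axis), for control and ACD cells side by side, with bars at the medians. The MHC class I medians are 26.3 in control and 98.9 in ACD, and those of the antiviral genes are 12.5 and 36.9.

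Of 13 measured antiviral interferon-stimulated genes, 9 were higher in ACD and none lower, against 1.57% and 0.449% of all genes. Their median damped log2 ratio was 2.03. *Ifi27l2a*, an interferon-induced membrane protein gene, was at 66.8 (56.3 to 78.6) in control and 727 (685 to 770) in ACD, a plain log2 ratio of 3.44 (3.19 to 3.70), with a UMI in 47 control and 95 ACD KCs. *Ifitm3*, which blocks virus entry, was at 606 (574 to 640) and 2379 (2304 to 2457). *Bst2*, which tethers budding virus, was at 2.76 (1.01 to 6.01) and 92.4 (78.0 to 109), and the ubiquitin-like *Isg15* at 4.60 (2.21 to 8.47) and 65.6 (53.6 to 79.6). *Oasl2*, *Xaf1*, *Samhd1* and *Rtp4* were higher too, *Rtp4* from 1 UMI in control to 76 in ACD, a plain log2 ratio of 6.72 (4.20 to 12.04). *Ifitm1* was called, although 1 ACD cell held 72.7% of its 128 UMIs. *Ifitm2* (damped log2 ratio 0.47), the RNA sensor kinase *Eif2ak2* (0.57) and *Trim25* (0.11) were not past 2-fold. Several classical members stayed under 50 UMIs, with 0 in control and 22 in ACD for *Ifit1*, 0 and 18 for *Mx1*, 0 and 15 for *Oas1a*, and 1 and 18 for *Usp18*. The summed group had a median of 12.5 per 10000 UMIs of a control cell and 36.9 of an ACD cell, and 102 ACD cells lay above the control median.

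The signalling genes were split. Of 16 measured genes for interferon signalling and guanylate-binding proteins, 9 were higher in ACD and none lower, against 1.57% and 0.449% of all genes. Their median damped log2 ratio was 1.16. *Irf7* (5.06 in control and 39.5 in ACD) and *Irf9* (18.0 and 50.4), which act in the type I interferon pathway, were among the higher ones. *Irf1*, whose promoter with its GAS is shown above, was already at 183 (166 to 202) in control and at 283 (257 to 311) in ACD, a damped log2 ratio of 0.60. *Stat2* (0.91), *Stat3* (-0.06) and the feedback inhibitors *Socs1* (0.36) and *Socs3* (-0.21) were not past 2-fold.

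The guanylate-binding proteins and immunity-related GTPases, which attack vacuoles of intracellular microbes, were nearly silent in control KCs. *Gbp2* had 1 UMI in control and 173 in ACD, a plain log2 ratio of 7.90 (5.41 to 13.22), but these came from 20 of 116 cells. *Gbp7* had 3 UMIs in control and 101 in ACD, a plain log2 ratio of 5.54 (3.95 to 7.84), in 33 ACD cells, and *Igtp* had 4 and 55. *Iigp1* had 0 in control and 115 in ACD, at least 53.1-fold higher when 3 UMIs over the control KCs are taken as the floor, in 21 ACD cells. *Zbp1* had 0 and 23 UMIs and *Irgm1* 6 and 32, too few to be measured. The groups differed in breadth, since *B2m* and *Psmb8* were found in 113 and 102 ACD cells, and the GTPase genes in 20 to 33.

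**Figure D3:**
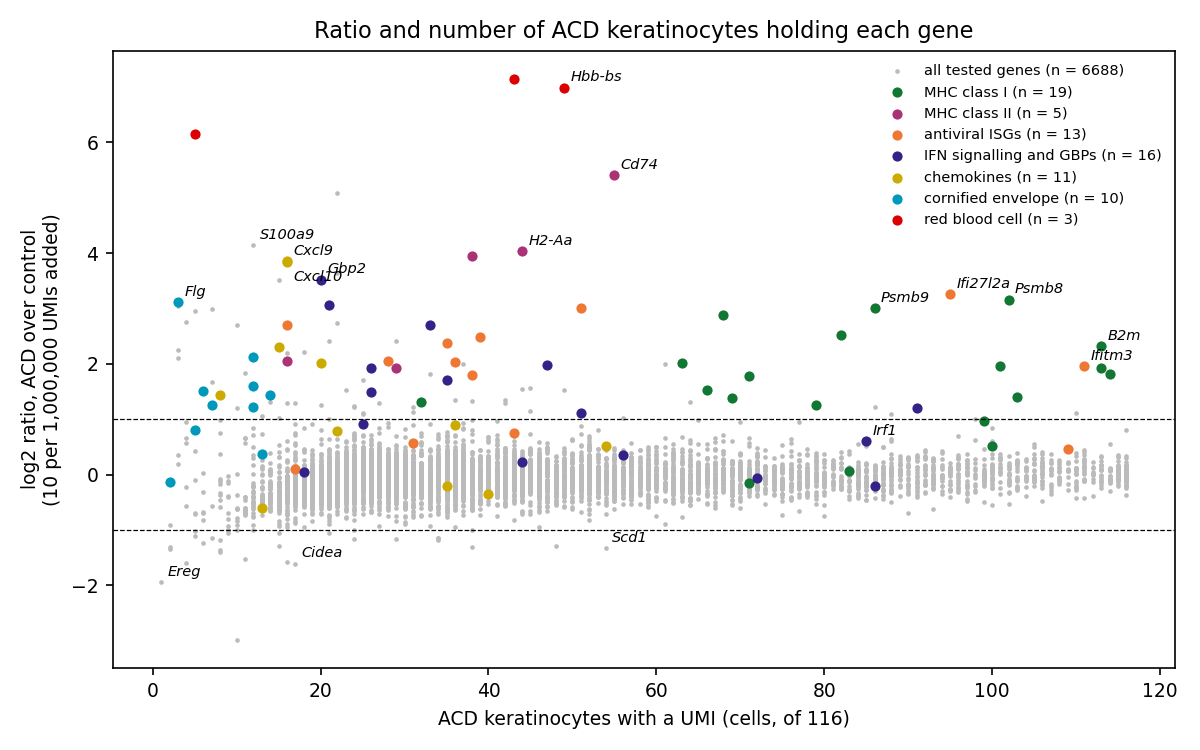
Damped log2 ratio of ACD over control (y axis) against the number of ACD KCs with a UMI (x axis) for measured genes, with the interferon, MHC, chemokine, cornified and red blood cell groups colored and dashed lines at 1 and -1. MHC class I genes sit high and to the right, as *B2m* with 113 of 116 cells, and *Cxcl9* and *Cxcl10* sit high and to the left with 16 cells each.

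All 5 measured MHC class II genes were higher, against 1.57% of all genes, with a median damped log2 ratio of 3.94. *Cd74*, the invariant chain that escorts class II molecules, had 11 UMIs in control KCs, never more than 1 in a cell, and 988 in ACD KCs, which is a level of 5.06 (2.53 to 9.06) in control and 630 (591 to 670) in ACD. *H2-Aa* had 6 and 312 UMIs, *H2-Ab1* 2 and 248, *H2-Eb1* 4 and 61 and *H2-DMa* 5 and 58. The class II transactivator *Ciita* had 0 and 3 UMIs.

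A UMI of any class II gene was found in 72 of 116 ACD KCs (62.1%), and most class II UMIs sat in fewer cells. *Cd74* reached at least 5 UMIs in 31 ACD KCs (26.7%), as did the class I gene *Psmb9*, while *B2m* reached it in 98 and *Psmb8* in 58. The 31 *Cd74* cells held 96.6% of the *Cd74* UMIs of ACD KCs, the richest of them 99 UMIs. Of the 31, 1 had a UMI of *Cd207*, the Langerhans cell gene, and none had over 7 UMIs of the whole myeloid list. The MHC class I group was high on both sides of this divide, at 12577 in the *Cd74* cells and 8789 in the other ACD KCs, against 2913 in control KCs.

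Class II transcripts were also found in ACD cells of another kind. Cartilage cells, taken as barcodes with at least 20 UMIs of 5 cartilage genes, had a *Cd74* UMI in 29.6% of 1123 cells (26.9 to 32.3) in ACD and 2.39% of 1548 (1.69 to 3.28) in control, at median depths of 11310 and 9582 UMIs. In KCs these shares were 47.4% (38.1 to 56.9) and 7.05% (3.57 to 12.3). After thinning to 2000 UMIs a cell, with 8 shallower ACD KCs left out, *Cd74* was found in 35 of 108 ACD KCs (32.4%, 23.7 to 42.1) and in 157 of 1123 ACD cartilage cells, with an upper limit of 16.2%. In control it was then found in 1 of 156 KCs (0.64%) and 7 of 1548 cartilage cells (0.45%). At the same depth *Psmb8* went from 8.33% to 53.7% of KCs and from 0.78% to 9.08% of cartilage cells, and *Ifi27l2a* from 8.97% to 54.6% of KCs and from 0.39% to 1.34% of cartilage cells. The ACD shares of all 3 genes were thus higher in KCs than in cartilage cells beyond counting error. What free RNA in the droplets adds to the KC values was not tested.

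Leukocyte transcripts moved with these groups. The T cell list summed to 21.2 in control KCs and 146 in ACD KCs, and the myeloid list to 8.75 and 90.5, with 76.1% of the ACD sum in 1 cell that held nearly all UMIs of the basophil gene *Mcpt8* (0 in control and 90 in ACD). Of 16 T cell genes 11 were at 0 in control KCs and 1 in ACD KCs, and of 17 myeloid genes 11 and 8. In single cells the T cell list reached 3.80 per 10000 UMIs in control and 46.0 in ACD, and the myeloid list 3.53 and 258, with medians of 0 in both libraries. Among defining markers, *Cd3d* had 0 UMIs in control and 22 in ACD, *Cd3g* 7 and 32, *Nkg7* 0 and 27, *Tyrobp* 0 and 15, *Lyz2* 3 and 7 and *Cd4* 0 and 0. The leukocyte genes *Cd52* (4 UMIs in control and 83 in ACD) and *Srgn* (1 and 94) were in 21 and 22 ACD KCs and at damped log2 ratios of 2.22 and 2.19 without their richest cells. The fibroblast list was level at 937 and 943, and the cartilage list was at 726 and 633. In the 115 control and 57 ACD KCs without a single UMI of the T cell and myeloid lists, 14 of 18 measured MHC class I genes were still higher with a median damped log2 ratio of 1.77, as were 3 of 6 antiviral genes (1.39), 4 of 9 signalling genes (0.83) and both measured class II genes (3.99), against 1.83% of all genes measured in these cells. Of the chemokines 1 of 6 was higher there, with a median of 0.51. Cells chosen in this way can still hold leukocyte RNA of genes outside the 2 lists. The part of leukocyte transcripts in the remaining differences was not tested.

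*Cxcl9* and *Cxcl10*, chemokines that draw CXCR3-bearing T cells, came from few KCs. *Cxcl9* had 0 UMIs in control and 212 in ACD, at least 97.8-fold higher, and *Cxcl10* had 7 and 280, a plain log2 ratio of 5.79 (4.73 to 7.12). Each was found in 16 ACD cells, and the richest cell held 40.1% of *Cxcl9* and 40.0% of *Cxcl10*. Just 9 ACD KCs and no control KC had at least 5 UMIs of the pair, and these 9 held 95.8% of *Cxcl9*, 95.7% of *Cxcl10*, 72.3% of *Gbp2* and 67.8% of *Iigp1* UMIs of the ACD KCs.

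These 9 cells had a median of 374 UMIs of the selecting keratins and a minimum of 16. Of them, 6 also had at least 5 *Cd74* UMIs and none had a *Cd207* UMI, and they held at most 7 UMIs of the myeloid list, 4 of the T cell list and 15 of the fibroblast list. Of 11 measured chemokine genes, 5 were higher in ACD (1.57% of all genes were), but 3 without the richest cell (1.27%). *Ccl2*, which draws monocytes, was at 15.2 (10.5 to 21.3) in control and 92.4 (78.0 to 109) in ACD in 13 and 20 cells. *Ccl20*, which draws CCR6-bearing cells, and *Ccl3* were called on 1 cell each that held about 76% of their UMIs. The KC chemokine *Ccl27a* (76.4 and 58.0), the neutrophil attractant *Cxcl1* (84.3 and 71.4), *Cxcl16* (57.1 and 85.4) and *Cxcl14* (61.2 and 123) were not past 2-fold.

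The receptors that KCs carry for these signals stayed within 2-fold. None of 18 measured cytokine and growth factor receptor genes passed 2-fold in either direction and their median damped log2 ratio was -0.01. *Ifngr1* was at 52.9 (43.7 to 63.6) in control and 46.5 (36.5 to 58.5) in ACD, and *Ifngr2* at 29.9 (23.1 to 38.1) and 34.4 (25.9 to 44.9), with overlapping intervals. *Ifnar1*, *Ifnar2*, the IL-17 receptor chains *Il17ra* and *Il17rc* and the TNF receptor *Tnfrsf1a* had damped log2 ratios from -0.21 to 0.29.

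Measured genes of groups that answer other signals also stayed within 2-fold, with 1 exception. Of 14 measured IL-17 and NF-κB response genes none passed 2-fold (median -0.03), with *Nfkbia* at 1414 and 1309 and *Nfkbiz* at 293 and 252. Of 4 measured IL-1 family and epithelial cytokine genes none passed 2-fold. *Tnf* had 11 and 24 UMIs, *Il1b* 0 and 2, *Il1f6* 0 and 4 and *Tslp* 4 and 4, and the macrophage growth factor *Csf1* had 9 and 37. These genes had under 50 UMIs and were not measured, so the 2-fold limit was not applied to them. The antioxidant and detoxifying genes that answer electrophiles such as DNFB had 22 measured members, of which none was higher and 1 lower (0.449% of all genes were). This was the glutathione transferase *Gsta3*, at 296 (274 to 320) and 127 (110 to 146). *Nqo1* (0.18), *Gclm* (0.05) and *Txnrd1* (-0.28) were near 0 in damped log2 ratio. None of 21 immediate-early and heat-shock genes passed 2-fold, the largest being *Hspa1a* at 855 and 1534.

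Genes that hold KCs to their neighbors and to the basement membrane stayed within 2-fold. None of 14 basal adhesion genes and none of 11 desmosome genes was called in either direction, with *Col17a1* (0.51) and the laminin chain *Lamb3* (0.65) at the upper end. Cell cycle genes leaned downwards, with 3 of 23 above 0 and a median damped log2 ratio of -0.33. *Mki67* was at 42.8 and 41.4 and *Ccnd2* at 605 and 368. *Cenpf* was the single lower gene of the 23 at 53.4 and 20.4, against 0.449% of all genes, and was not past 2-fold without its richest cell.

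Cornified envelope genes rested on few cells. Of 10 measured, 7 were higher (1.57% of all genes were), but 3 without the richest cell (1.27%). In basal KCs alone 1 of these genes had enough UMIs to be measured and was higher (1.34% of all genes measured in basal KCs were). *Flg*, the gene of the barrier protein filaggrin, had 3 UMIs in control and 139 in ACD, of which 132 were in 1 cell. The proteases and inhibitors of shedding *Klk5*, *Klk7*, *Klk8* and *Spink5* were among the calls, with *Spink5* at 38.2 and 136 and 65.7% of its ACD UMIs in 1 cell. Of 10 measured spinous layer genes 1 was higher and 1 lower, against 1.57% and 0.449% of all genes. The higher one was the transglutaminase *Tgm5* (9.21 and 35.7) and the lower one the metallothionein *Mt4* (68.6 and 28.7). *Mt4* was not past 2-fold without its richest cell in each library. In basal KCs alone 3 of the 10 were higher and none lower, *Tgm5* at a damped log2 ratio of 1.33, *Calml3* at 1.04 and *Dmkn* at 1.03. *Krt1* and *Krt10*, which were used in the selection, were at 202 and 484 and at 311 and 801.

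Of 14 measured wound and hyperproliferation genes 5 were higher and 1 lower, against 1.57% and 0.449% of all genes. All 5 stayed higher without the richest cell (1.27% of all genes did). In basal KCs alone 8 were measured, of which 1 was higher, *Stfa3* with 9 UMIs in control and 93 in ACD, and 1 lower. Over all genes measured in basal KCs these shares were 1.34% and 0.425%. *Stfa3*, a cysteine protease inhibitor, had 9 UMIs in control and 263 in ACD, in 22 ACD cells with 61.2% in 1 of them. Without its richest cell in each library its damped log2 ratio was 2.62. *Sprr2d* had 1 and 119 UMIs, *Sprr2a3* 0 and 87 and *Sprr1b* 1 and 62. Suprabasal ACD cells held 98, 14 and 7 of the *Sprr2d* UMIs, 50 and 1 of *Sprr2a3* and 32, 20 and 10 of *Sprr1b*. *Krt16*, a stress keratin, was at 14.3 (9.70 to 20.3) and 53.5 (42.7 to 66.3) in 6 and 14 cells, whereas *Krt6a* (0.17) and *Krt17* (-0.14) were near 0. *BC100530*, a neighbor of *Stfa3*, had 0 UMIs in control and 515 in ACD, at least 238-fold higher, in 22 cells with 72.6% in the richest. The lower gene, the growth factor *Ereg*, had 1 cell with 136 UMIs in control and 1 with 14 in ACD.

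The alarmins were richest in the ACD cell that was also richest in *Stfa3*. *S100a9* had 2 UMIs in control and 288 in ACD with 78.1% in 1 cell, and *S100a8* had 2 and 180 with 71.1% in 1 cell. Without the richest cell in each library they had damped log2 ratios of 2.33 and 2.05, and a further suprabasal ACD cell held 36 *S100a9* and 16 *S100a8* UMIs. Of 8 measured antimicrobial genes *S100a9* and *S100a8* were the 2 higher ones (1.57% of all genes were higher), and *Defb6* (0.93) and *Lcn2* (0.73) were not past 2-fold. *Slpi* was lower (111 and 44.0), but was at a damped log2 ratio of 0.68 in KCs with no *Krt79* UMI. In basal KCs alone 6 antimicrobial genes were measured, none of them higher and 1 lower (0.425% of all genes measured in basal KCs were). Of 10 measured tight junction and lipid barrier genes 1 was higher (1.57% of all genes were), the lipid carrier *Fabp5*. It was at 129 (114 to 145) and 544 (508 to 582), and at a damped log2 ratio of 1.09 without its richest cells. *Fabp5* had a UMI in 54 control and 37 ACD KCs. Most of its ACD UMIs were in the suprabasal cells, which held 491, 124, 68, 42 and 21. In basal KCs alone 8 tight junction and lipid barrier genes were measured and none was higher.

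The 8 suprabasal cells differed among themselves. In ACD, the cell with 491 *Fabp5* UMIs also held 128 of *S100a8*, 225 of *S100a9*, 374 of *BC100530*, 161 of *Stfa3* and 98 of *Sprr2d*, with 140 of *Krt14* beside 141 of *Krt10*. Another ACD cell held 132 UMIs of *Flg*, 97 of *Lor*, 140 of *Spink5* and 672 of *Krt10* and no *S100a8*. A further ACD cell held 47 of the 212 *Cxcl9* UMIs and 27 of *Psmb8*. The shallowest ACD cell, with 2777 UMIs, repeated the first pattern at 16 *S100a8*, 36 *S100a9* and 40 *BC100530* UMIs. In control, 1 cell held 91 *Lor*, 69 *Spink5* and 55 *Klk7* UMIs and another 427 of *Krt10* with no *Lor*, and none of the 3 had a UMI of *S100a8*, *S100a9*, *BC100530* or *Stfa3*.

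Counts over suprabasal cells were therefore made on 3 cells against 5, where 37 of 268 measured genes were higher (13.8%) and 25 lower (9.33%). In basal KCs 88 of 6581 genes were higher (1.34%) and 28 lower (0.425%). All 15 class I genes and all 5 class II genes were among those higher in basal cells alone, as were 8 of 12 antiviral and 9 of 16 signalling genes.

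Part of the KCs were of the sebaceous gland and its duct. *Krt79*, a keratin of the follicle opening and the gland duct, reached at least 5 UMIs in 42 of 156 control KCs (26.9%) and 23 of 116 ACD KCs (19.8%). *Krt15*, a keratin of basal KCs, reached it in 123 and 83. Cells with *Krt79* and little *Krt15* numbered 21 in control and 7 in ACD. The hair follicle list as a whole was level, with none of 14 measured genes called and *Krt79* itself at 684 and 649.

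Of 11 measured sebaceous gland genes none was higher and 4 were lower in ACD, against 0.449% of all genes, and all 11 lay below 0 with a median damped log2 ratio of -0.66. *Scd1*, which puts the double bond into sebum fatty acids, was at 483 (454 to 513) in control and 187 (166 to 209) in ACD. The lipid droplet gene *Cidea* was at 90.7 (78.5 to 104) and 22.9 (16.1 to 31.8), the cholesterol ester enzyme *Soat1* at 50.2 (41.2 to 60.5) and 12.7 (7.79 to 19.7), and the fatty acid elongase *Elovl6* at 76.9 (65.7 to 89.5) and 31.9 (23.7 to 42.0). *Mgst1* (-0.76), *Plin2* (-0.48), *Fasn* (-0.02) and *Pparg* (-0.04) were not past 2-fold.

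The lower levels of *Scd1*, *Cidea*, *Soat1* and *Elovl6* lay in part of the *Krt79* cells. In all KCs with at least 5 *Krt79* UMIs *Scd1* was at 1300 (1217 to 1387) in control and 529 (461 to 604) in ACD, *Cidea* at 272 (235 to 314) and 60.4 (39.1 to 89.1), *Soat1* at 148 (121 to 180) and 38.6 (22.1 to 62.7) and *Elovl6* at 188 (157 to 223) and 79.7 (54.9 to 112). In the 21 control and 7 ACD cells with *Krt79* and little *Krt15* they were at 2255 (2104 to 2415) and 624 (487 to 789) for *Scd1*, at 467 and 71.4 for *Cidea*, at 273 and 107 for *Soat1* and at 339 and 89.2 for *Elovl6*. In the 21 control and 16 ACD cells with at least 5 UMIs of both keratins *Scd1* went the other way, at 257 (205 to 317) and 493 (417 to 579), as did *Elovl6* at 23.9 (10.3 to 47.0) and 76.2 (48.3 to 114), while *Cidea* (59.7 and 56.3) and *Soat1* (11.9 and 13.2) had overlapping intervals.

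In the KCs under 5 *Krt79* UMIs *Scd1* was at 93.2 (78.2 to 110) in control and 64.1 (50.3 to 80.4) in ACD, *Elovl6* at 23.8 and 14.7, *Cidea* at 4.08 and 9.53 and *Soat1* at 3.40 and 3.46, and the intervals overlapped for all 4 genes. In the 85 control and 71 ACD KCs with no *Krt79* UMI none of 5 measured sebaceous genes was lower, against 0.821% of all genes. Fewer mature gland cells in the ACD library and less transcript in each cell cannot be told apart.

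The *Krt79* cells shared in the interferon pattern all the same. *B2m* was at 362 (319 to 410) in control and 1951 (1819 to 2090) in ACD in *Krt79* cells, and at 405 (373 to 438) and 1999 (1918 to 2082) in the others. *Psmb8* was at 51.3 (35.9 to 71.1) and 500 (434 to 573) in *Krt79* cells and at 51.7 (40.7 to 64.7) and 556 (514 to 601) in the others. The intervals of the 2 kinds of cell overlapped in both libraries for both genes.

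**Figure D4:**
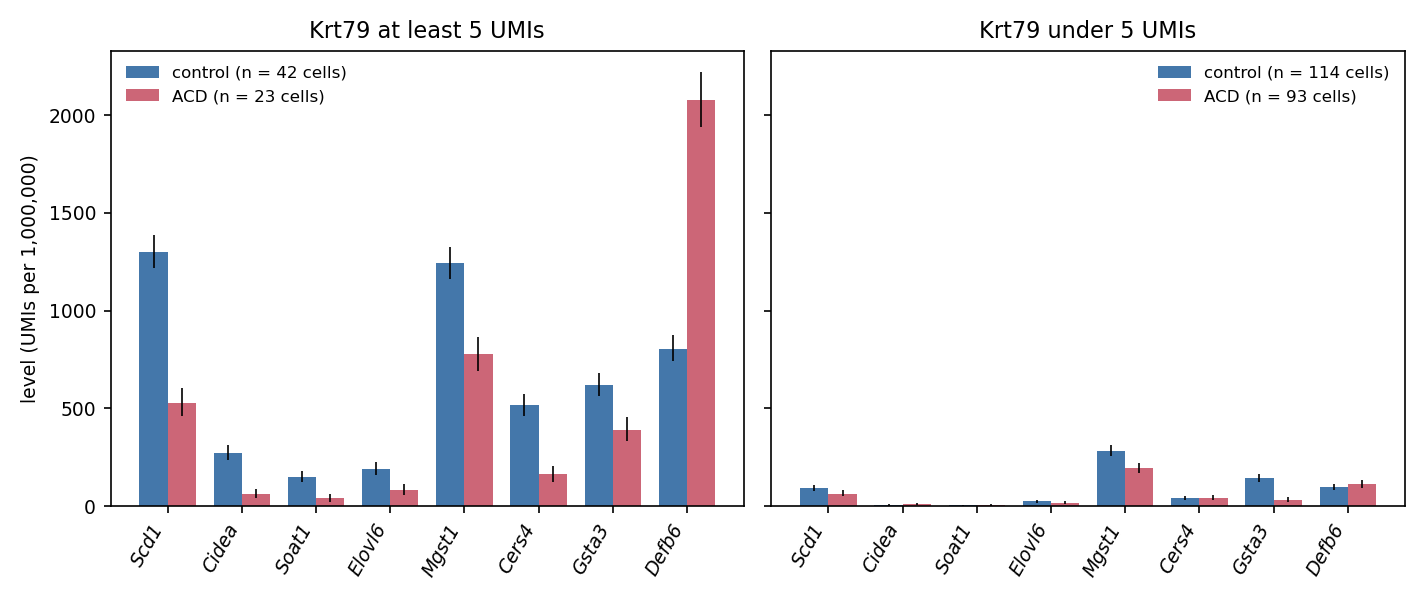
Levels per 1000000 UMIs (y axis, linear) of 8 genes of gland and duct KCs in cells with at least 5 UMIs of *Krt79* (left, 42 control and 23 ACD) and in the remaining KCs (right, 114 and 93), with exact Poisson 95% bars. In the *Krt79* cells *Scd1* lies at 1300 in control and 529 in ACD and *Mgst1*, *Cers4* and *Gsta3* are also lower in ACD, while the defensin *Defb6* lies at 806 in control and 2074 in ACD. In the remaining KCs *Gsta3* is lower in ACD too, at 143 (124 to 163) in control and 32.9 (23.3 to 45.2) in ACD. *Mgst1* lies there at 282 (256 to 311) and 193 (169 to 220).

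Further genes among the lowest ratios were the peroxisomal *Acoxl* (35.5 in control and 5.10 in ACD), the transcription factor *Zbtb16* (41.0 and 7.65), the retinol receptor *Stra6* (35.5 and 7.65) and the matrix gene *Fmod* (70.9 and 17.2). *Acoxl* had a UMI in 32 control and 4 ACD cells and *Zbtb16* in 55 and 11. Genes of other cell types were also near the ends of the ranking. *Hba-a1*, a hemoglobin gene of red blood cells, had 39 UMIs in control and 6218 in ACD, 89.3% of them in 1 cell. The melanocyte genes *Pmel* and *Dct* were lower (36.4 and 8.29, 59.9 and 19.8). Without the 6 control and 7 ACD members that had over 2% of their UMIs in lists of other cell types, 15 of 19 class I, 8 of 12 antiviral, 10 of 16 signalling, 5 of 5 class II and 4 of 9 chemokine genes were higher (1.57% of all genes measured in these cells) and 4 of 11 sebaceous genes lower (0.354%).

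Some of the genes that were higher lay in known chromosomal clusters. Positions are on GRCm38. Over all genes 1.57% were higher. In the major histocompatibility complex, from *H2-K1* to *H2-M3* at chr17:33996017-37274484, 15 of 62 measured genes were higher (24.2%) and none lower. All 15 belong to the MHC class I and class II groups counted above, so the region is no separate result. In the epidermal differentiation complex, from *S100a10* to *S100a1* at chr3:90511034-93564643, 6 of 19 were higher (31.6%) and none lower, 5 without the richest cell. The 6 were *Flg*, *S100a8*, *S100a9*, *Sprr1b*, *Sprr2a3* and *Sprr2d*, all already given with their groups above. Most ACD UMIs of each of them lay in the 5 suprabasal cells.

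Other skin cells gave a frame for these values. Fibroblasts (dFBs) were taken by collagen and *Pdgfra* UMIs (3326 in control, 1669 in ACD), endothelial cells by *Pecam1* and *Cdh5* (115 and 101) and cartilage cells as above. The class I group had a median damped log2 ratio of 1.77 in KCs, 1.54 in dFBs, 1.83 in endothelial cells and 0.56 in cartilage cells. The antiviral group was at 2.03 in KCs, 0.64 in dFBs, 1.33 in endothelial cells and 0.27 in cartilage cells. The signalling group was at 1.16 in KCs, 0.77 in dFBs and 1.92 in endothelial cells, and class II was at 3.94, 0.86 and 3.51. The sebaceous list was at -0.66 in KCs, 0.00 in dFBs and 0.45 in endothelial cells. With 1 library per condition these differences between cell types were not tested, and the genes measured in each type were not all the same.

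*Ifi27l2a* was at 66.8 and 727 in KCs and at 66.2 and 275 in dFBs. *Ifitm3* was at 606 and 2379 in KCs and at 1311 and 2674 in dFBs, so its level was higher in dFBs in both libraries and its ratio larger in KCs. *Cxcl9* had the larger ratio in dFBs, with 0 and 135 in KCs and 1.72 and 427 in dFBs. *Gbp2* was at 0.460 and 110 in KCs and at 17.8 and 194 in dFBs. *Cd74* was at 5.06 and 630 in KCs, 15.0 and 153 in dFBs and 2.19 and 905 in endothelial cells.

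**Figure D5:**
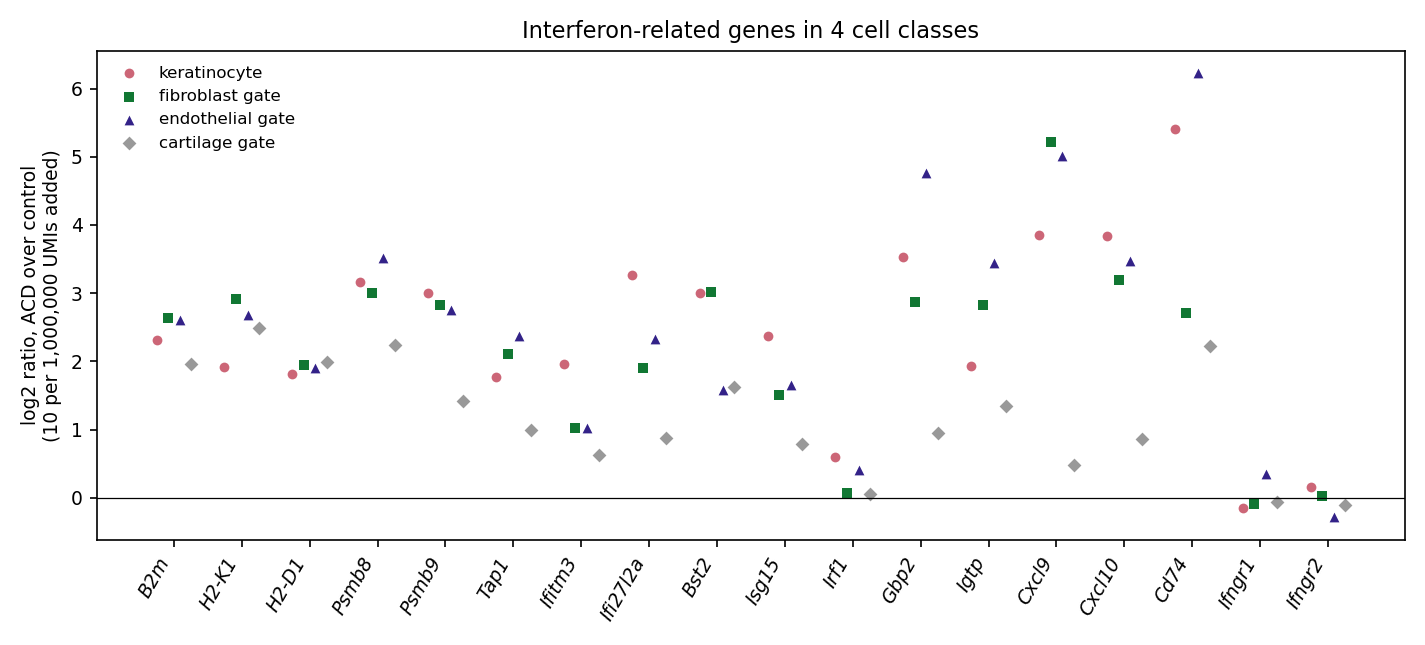
Damped log2 ratios of ACD over control (y axis) of 18 interferon-related genes (x axis) in KCs, dFBs, endothelial cells and cartilage cells. *Ifi27l2a* is highest in KCs, *Cxcl9* is highest in dFBs and *Gbp2* and *Cd74* in endothelial cells, and the receptor genes *Ifngr1* and *Ifngr2* lie near 0 in all 4.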

How the data were processed

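The authors aligned the reads of 1 control and 1 ACD library (10x Chromium 3′) to mm10 with Cell Ranger (3.1.0 per the submitters' processing notes) and deposited UMI counts per gene and barcode for 27998 genes, not normalized. Barcodes were kept with over 200 and under 5000 genes, no more than 25000 UMIs (the limit in the methods was read as an upper one) and a mitochondrial share under 8%. Members and gene lists were chosen with earlier results of these data known. UMIs were summed over members per library, scaled to 1000000, and compared as ratios with 10 added for calls. Intervals were exact Poisson for levels, Clopper-Pearson for shares and conditional binomial for ratios. Named were the 10 genes at each end of the ratios, up to 6 genes per list with the largest ratios, and list members that a sentence on a role needed. Alternatives were other barcode filters and member rules, the mean over cells, median-of-ratios scaling, 1 added, thinning to 2000 UMIs, count limits of 20 and 200, members without *Krt79*, and each gene without its richest cells. Python 3.11.15, numpy 2.4.6, scipy 1.17.1, pandas 2.3.3 and matplotlib 3.10.9 were used. Promoters came from RefSeq, and positions from GENCODE on GRCm38, where 27722 identifiers were found. Cluster labels of the authors were not used here. Results for some genes are not reported here.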

Additional observations from a re-analysis of the deposited data

How the results depend on the processing

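No paired analysis was possible because each condition was 1 library and the labels give no replicate numbers. Over all alternatives, 66 values of the shares and gene counts stayed within their interval or within 1.5 times, and 24 moved. With all deposited barcodes the KC share was 1.47% in control (1.27 to 1.70) and 1.65% in ACD (1.44 to 1.88). The order of the 2 libraries was thus the reverse of that among kept barcodes, with overlapping intervals. All deposited barcodes held 190 KCs in control and 217 in ACD, against 156 and 116 among kept barcodes. The barcode filter thus left out a larger part of the ACD KCs than of the control KCs, and the ratios above rest on the kept ones. The higher and lower counts with all deposited barcodes were 170 and 16 in all KCs and 143 and 17 in basal KCs, with 134 higher in suprabasal KCs. Without *Krt79* cells, an alternative chosen after seeing the data as was leaving out richest cells, the KC shares were 0.696% in control and 0.609% in ACD. Adding 1 in place of 10 gave 92 lower genes in all and 97 in basal KCs. Thinning to 2000 UMIs gave 295 higher and 387 lower in all, 266 and 376 in basal and 65 and 47 in suprabasal KCs. A limit of 20 UMIs gave 113 and 48 in suprabasal KCs, and a limit of 200 gave 45 and 11 in all, 39 and 12 in basal and 4 and 9 in suprabasal KCs, where fewer genes were tested. Of 65 called genes that the text could name, 54 to 65 stayed past 2-fold under each alternative. Damped log2 ratios that changed sign were *Cenpf* at 0.14 with all barcodes and 0.37 after thinning, *Hbb-bt* at -0.24 without members rich in genes of other types, *Ereg* at 0.00 without its richest cells, and, without *Krt79* cells, *Ereg* at 1.40, *Cidea* at 0.048, *Soat1* at 0.00, *Slpi* at 0.68 and *Ccl20* at -0.44. The cause of these shifts was not tested. The number of KCs limits the depth, most of all in the 8 suprabasal cells.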

Other observations

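*Cst6*, the gene of a cystatin of the sebaceous duct and follicle opening, was at 1811 in control KCs and 2237 in ACD KCs. In the 21 control cells with at least 5 *Krt79* UMIs and under 5 of *Krt15* it was at 9650, with UMIs in 5 of them, and in the 7 such ACD cells at 999, with UMIs in 3. In cells with at least 5 UMIs of both keratins, 21 in control and 16 in ACD, it was at 892 in control and 8927 in ACD, with UMIs in 9 and 11 cells, and 1 ACD cell held 60.1% of the *Cst6* UMIs of all ACD KCs. *Defb6*, an epithelial defensin gene, was at 945 and 812 in the first kind of cell, with UMIs in 5 and 2 cells, and at 653 and 2543 in the second, with UMIs in 10 and 9. KCs under 5 UMIs of both keratins numbered 12 in control and 26 in ACD, with median depths of 13208 and 7731 UMIs. The matrix gene *Postn* (55.2 in control and 182 in ACD) and the gene *Apod* (22.6 and 163) were higher in ACD KCs in 49 and 44 and in 34 and 29 cells, and the fibroblast list as a whole summed to 937 and 943. *Apod* and the cells split by *Krt15* and *Krt79* were chosen after their values were seen.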
